A study of Homo sapiens with 7 samples.

Results

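The collagen genes were taken as the protein-coding genes of GENCODE release 44 whose symbol is COL, a type number, A and a chain number. This rule found 44 of 20033 protein-coding genes. They were split into 9 fibrillar genes (types I, II, III, V and XI), 6 basement membrane genes (all of type IV) and 29 others. Type XXIV and XXVII collagen, which are built much like fibrillar collagens, were counted among the others by this rule. For each gene the window was the gene body plus 20 kb either side, on the hg38 genome, and the value was the number of bases in that window covered by called H3K4me1 intervals. Each value is also given per kb of window, so that genes of different length can be set side by side.

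The study performed ChIP-seq for H3K4me1, KMT2D and EBF2 in SW1990, an established human pancreatic cancer cell line. Cells carrying a negative control shRNA (NC) were compared with cells in which the methyltransferase KMT2D was knocked down by shRNA (KMT2D-KD). There was 1 library for each of the 3 targets in each condition, plus 1 input library whose condition the labels do not give, and both conditions therefore shared the shRNA treatment and the cell line. KMT2D abundance after the knockdown was not analysed here. With 1 library a group there is no replicate error, so no p-value is given, and the 95% intervals below are exact binomial ones that cover counting error only. A change in the share of cells carrying the mark and a change in its amount per cell cannot be told apart in such bulk material.

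Collagens are secreted proteins whose chains wind around one another into a rope-like helix. Fibrillar collagens pack into the fibres of connective tissue, type IV collagen forms the sheet-like network under epithelium, and the remaining types decorate fibres, anchor cells or form filaments. In pancreatic cancer the fibres of the dense stroma are mostly laid down by fibroblasts rather than by the carcinoma cells. H3K4me1 is a histone mark of enhancers, including poised ones, and of the flanks of promoters, so an interval at a gene does not by itself say that the gene is transcribed.

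The H3K4me1 list of NC held 64843 intervals and that of KMT2D-KD held 92135, with a median of 12 ChIP fragments at an interval's summit in both. All of the 9 pancreatic duct epithelium markers examined carried H3K4me1 in both lists, from 4.96 to 293 covered bases per kb in NC and from 22.5 to 400.4 in KMT2D-KD, with KRT7 highest. Of 6 fibroblast markers, 4 carried H3K4me1 in NC and 5 did in KMT2D-KD, with ranges of 0 to 88.1 and 0 to 161 covered bases per kb, and PDGFRA was at 0 in both. Of all protein-coding genes, 63.2% had an interval in NC and 74.4% after the knockdown. Of 4 endothelial markers, 3 had an interval in either list, with KDR at 0 in both, and of 4 leukocyte markers 2 had one in NC and all 4 in KMT2D-KD.

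The first sequences shown are the strongest collagen interval of each list, each as 300 bases around the summit on the plus strand of hg38. In NC it lay 3′ of COL4A2, a basement membrane gene, inside the body of the neighbouring gene RAB20 and outside exons, at chr13:110528911-110529210. In KMT2D-KD it lay in an intron of COL5A1, a fibrillar gene, at chr9:134702659-134702958. Neither holds the AP-1 motif TGANTCA, so no letter is in capitals.
COL4A2, NC: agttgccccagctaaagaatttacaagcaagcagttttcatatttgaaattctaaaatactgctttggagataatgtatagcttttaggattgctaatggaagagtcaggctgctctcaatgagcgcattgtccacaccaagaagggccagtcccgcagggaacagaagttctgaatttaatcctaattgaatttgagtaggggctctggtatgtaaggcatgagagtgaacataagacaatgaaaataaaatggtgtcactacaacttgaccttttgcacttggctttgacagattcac
COL5A1, KMT2D-KD: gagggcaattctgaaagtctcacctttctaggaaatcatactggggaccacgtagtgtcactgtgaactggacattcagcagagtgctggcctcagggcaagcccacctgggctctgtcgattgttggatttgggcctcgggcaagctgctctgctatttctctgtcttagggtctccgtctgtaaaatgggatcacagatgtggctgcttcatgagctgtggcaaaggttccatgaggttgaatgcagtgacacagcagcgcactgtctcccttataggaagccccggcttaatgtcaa

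AP-1 is a family of transcription factors active at many enhancers, and its motif was searched as TGANTCA, which reads the same on both strands, in the 200 bases around each summit. The motif stood in 19 of 208 NC intervals in collagen windows (9.13%, 95% interval 5.59 to 13.9) and in 30 of 311 KMT2D-KD intervals (9.65%, 6.60 to 13.5). Over all protein-coding windows the shares were 7.77% and 7.51%, which lie within those intervals. The strongest KMT2D-KD interval with the motif among the fibrillar genes and among the others is printed here with the motif in capitals. These were chosen after the values were seen. Both lie in introns, on the plus strand of hg38, at chr9:134670526-134670725 for COL5A1 and chr9:98983832-98984031 for COL15A1. Each of these intervals overlapped an interval of the NC list.
COL5A1, fibrillar: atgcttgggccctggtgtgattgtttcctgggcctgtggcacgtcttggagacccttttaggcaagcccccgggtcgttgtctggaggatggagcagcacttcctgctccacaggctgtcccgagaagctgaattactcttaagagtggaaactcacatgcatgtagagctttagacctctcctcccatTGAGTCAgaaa
COL15A1, other: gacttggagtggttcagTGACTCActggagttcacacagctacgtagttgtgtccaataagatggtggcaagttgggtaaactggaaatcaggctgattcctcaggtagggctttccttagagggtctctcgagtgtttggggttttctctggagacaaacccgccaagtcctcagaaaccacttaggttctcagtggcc

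Over the collagen windows together, H3K4me1 covered more bases in KMT2D-KD than in NC, by nearly the same ratio as over all protein-coding genes. The 44 windows merged into 38 stretches, because the pairs COL4A1 and COL4A2, COL4A3 and COL4A4, COL4A5 and COL4A6, COL3A1 and COL5A2, COL6A5 and COL6A6, and COL9A1 and COL19A1 lie next to each other. Covered bases went from 97066 to 154356, a log2 ratio of 0.67, beside 0.65 over all protein-coding windows. The number of intervals went from 208 to 311, a log2 ratio of 0.58 (95% interval 0.32 to 0.84), beside 0.54 over all windows. When the list of KMT2D-KD was trimmed to as many of its top intervals as NC has, the log2 ratio of interval number was 0.10 (-0.18 to 0.38) in collagen windows and 0.03 in all windows. When both lists were kept to −log10 q of 5 or more, it was 0.86 and 0.91.

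Gene by gene, 31 collagen genes had more covered bases in KMT2D-KD, 8 had fewer and 5 had no interval in either list. Over all protein-coding genes, 65.4% had more, 11.9% had fewer and 22.7% had none. A gene was called higher when KMT2D-KD had at least 2 times the covered bases of NC and at least 500 bases, and lower by the same rule in the other direction. By this rule 12 collagen genes (27.3%) were higher, beside 29.2% of all protein-coding genes, and 1 (2.27%) was lower, beside 1.85% of all. By this call the collagen genes as a whole were thus close to the background in both directions. The median collagen gene had 6.49 covered bases per kb in NC and 8.56 in KMT2D-KD, where the median protein-coding gene had 5.13 and 11.7. The collagen median thus lay above that of all genes in NC and below it in KMT2D-KD. Over merged windows the collagen value was instead below that of all genes in both lists. It was 11.7 beside 13.9 covered bases per kb in NC, and 18.7 beside 21.9 in KMT2D-KD. The genes called higher were COL1A1, COL2A1, COL5A3 and COL11A1 of the fibrillar class, COL4A4 of the basement membrane class, and COL6A3, COL7A1, COL9A3, COL18A1, COL24A1, COL26A1 and COL27A1 of the others. COL1A2 was the gene called lower. Directions were not all firm: of the 39 genes with an interval, 16 changed direction under at least 1 of the alternative settings, among them COL4A1, COL4A3, COL4A5, COL4A6 and COL5A2. After division by the ratio over all windows, 3 of the 44 were higher and 1 lower, beside 13.2% and 4.52% of all genes. These shares are smaller but rest on few genes, and the difference was not tested.

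**Figure D1:**
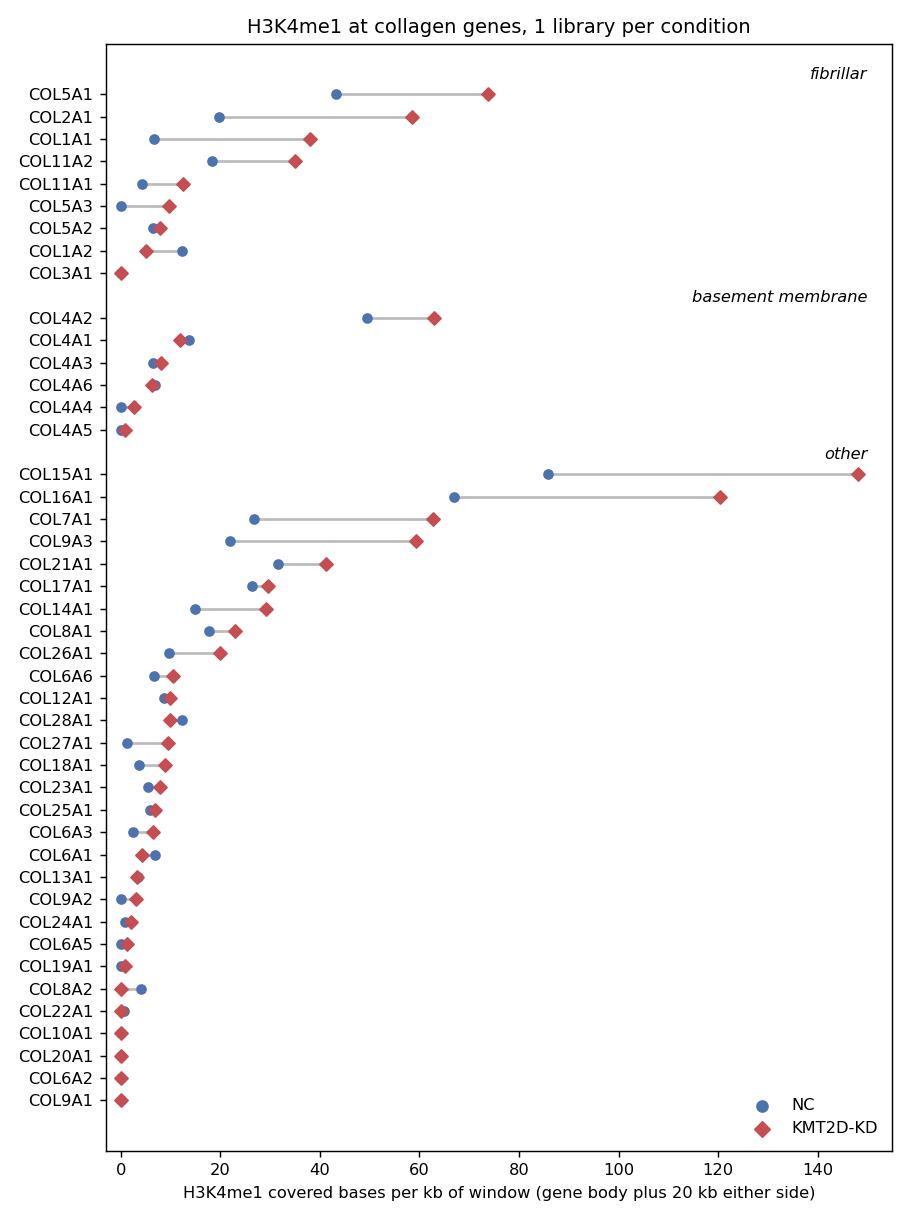
Covered H3K4me1 bases per kb of window (horizontal axis) for each of the 44 collagen genes, by class, with circles for NC and diamonds for KMT2D-KD, 1 library each. COL15A1 was highest in both lists (85.9 and 148), and among fibrillar genes COL1A2 was the one whose circle lies to the right of its diamond.

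Counted over all intervals, the fibrillar class had the largest ratio of covered bases of the 3 classes. It went from 14.7 to 28.4 covered bases per kb, a log2 ratio of 0.95, and from 41 to 71 intervals, a log2 ratio of 0.79 (95% interval 0.22 to 1.38). The basement membrane class went from 12.3 to 14.5 covered bases per kb, a log2 ratio of 0.23, while its intervals went from 42 to 36, a log2 ratio of -0.22 (-0.91 to 0.45). The others went from 11.01 to 17.7 covered bases per kb, a log2 ratio of 0.68, and from 125 to 204 intervals, a log2 ratio of 0.71 (0.38 to 1.04). The counting interval of the basement membrane class lies below the 0.54 of all windows. It overlaps that of the fibrillar class between 0.22 and 0.45, which does not settle whether the classes differ, and their difference was not tested. Covered bases per basement membrane interval were 393 in NC and 538 in KMT2D-KD, while all protein-coding windows had 497 and 540. Without COL4A2 the basement membrane values were 342 and 348.

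The order of the classes depended on the strength of the intervals counted. At −log10 q of at least 5, the basement membrane class went from 6 to 17 intervals and its log2 ratio of covered bases was 1.66, above the 0.93 of the fibrillar class (16 to 28 intervals) and the 0.69 of the others (38 to 64 intervals). With equal numbers of top intervals, the basement membrane class went from 42 to 25 intervals with a log2 ratio of covered bases of 0.02, and the fibrillar class from 41 to 48 with 0.63. Single genes held much of each class. Without COL5A1 the fibrillar log2 ratio of covered bases was 1.20, without COL4A2 that of the basement membrane class was -0.05, and without COL15A1 that of the others was 0.65.

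**Figure D2:**
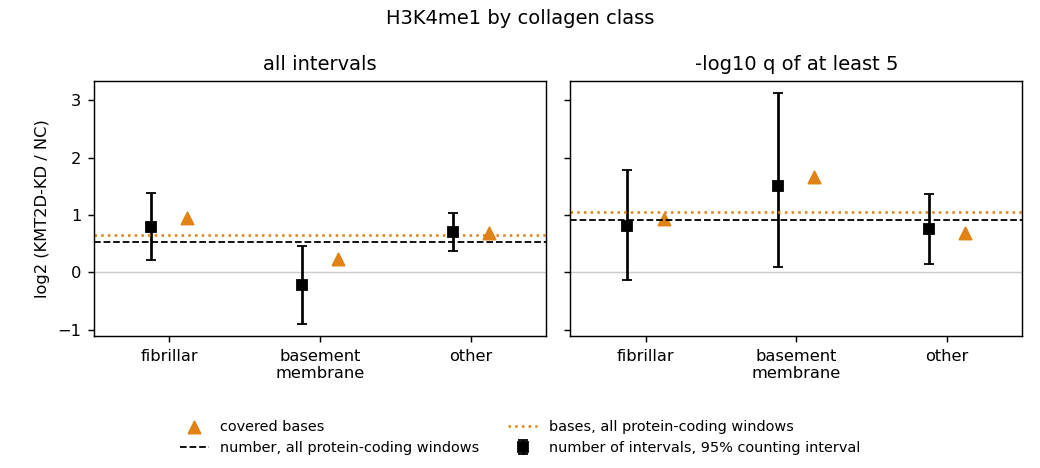
Log2 ratio of KMT2D-KD over NC (vertical axis) by collagen class, for all intervals (left) and for those with −log10 q of at least 5 (right). Squares give the number of intervals with its 95% counting interval, triangles give covered bases, and the dashed and dotted lines give the same ratios over all protein-coding windows. The basement membrane class is lowest on the left (0.23 for bases) and highest on the right (1.66).

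Among the fibrillar genes, the chains of type I collagen, the main protein of fibrous stroma, moved in opposite directions. COL1A1 (chr17:50184101-50201632) had 384 covered bases in 1 interval in NC, and in KMT2D-KD it had 2190 in 7 intervals, a log2 ratio of 2.51. COL1A2 (chr7:94394895-94431227) had 940 covered bases in 3 intervals in NC, and in KMT2D-KD it had 382 in 1 interval, a log2 ratio of -1.30. Within 1 Mb either side of them the log2 ratios of covered bases were 1.04 and 0.46, so COL1A1 lay above its neighbourhood and COL1A2 below it.

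No interval lay in the body of COL1A1 in either list. In KMT2D-KD, 784 covered bases stood upstream, in 3 intervals with summits 7.52, 9.87 and 17.3 kb before the 5′ end, and 1406 stood downstream. NC had its single interval in the downstream flank, where 2 of the KMT2D-KD intervals overlapped it. The call of COL1A1 also rests on weak intervals. At −log10 q of at least 5 it had 0 covered bases in NC and 249 in KMT2D-KD, too few for the call. Those 249 bases were a downstream interval that overlaps the NC interval, whose −log10 q was 4.86. At COL1A2, the interval over an exon about 29 kb from the 5′ end was present in both lists, with a fold enrichment over background of 5.31 in NC and 2.68 in KMT2D-KD, and 15 and 11 fragments. The other two NC intervals of COL1A2, with 10 fragments each, had no counterpart in KMT2D-KD. The call of COL1A2 rests on few bases: with −log10 q of at least 5, a 50 kb flank or a minimum of 1000 bases, 0 collagen genes were called lower.

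Of the cartilage fibril genes, COL2A1, which encodes type II collagen, had 1407 covered bases in 3 intervals in NC, and in KMT2D-KD it had 4189 in 8 intervals, a log2 ratio of 1.57. All 3 NC intervals recurred in KMT2D-KD, and all intervals of both lists lay outside the gene body. COL11A1, a minor chain of cartilage fibrils that is also used as a stroma marker, had 1148 covered bases in 3 intervals in NC, and in KMT2D-KD it had 3392 in 6, a log2 ratio of 1.56. None of these intervals overlapped one of the other list, so the gene's increase was made of different places. COL11A2, which encodes its partner chain, had 1281 and 2451 covered bases, a log2 ratio of 0.94, of which 1245 and 2022 bases lay in the bodies of other genes, mainly SLC39A7 and HSD17B8.

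Type V collagen starts the assembly of type I fibrils. Its gene COL5A1 held the most covered bases of the fibrillar class, 10512 in 24 intervals in NC, and in KMT2D-KD it had 17937 in 34 intervals, a log2 ratio of 0.77 beside 0.91 in its neighbourhood. COL5A1 was at percentile 90.2 of all protein-coding genes in NC and 90.8 in KMT2D-KD, so its rank hardly moved. Of its NC intervals 21 recurred in KMT2D-KD, and of its KMT2D-KD intervals 22 overlapped one of NC.

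COL5A2 went from 1526 to 1854 covered bases, a log2 ratio of 0.28, with 1 of its 4 NC intervals found again. COL5A3 had no interval in NC and 891 covered bases in 3 intervals in KMT2D-KD, with 10 to 14 fragments each. COL3A1, the type III collagen gene of vessels and soft tissue, had no interval in either list. The fibrillar class thus ran from a gene without the mark to one at percentile 90.8.

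Among the basement membrane genes, COL4A1 and COL4A2, which encode the chains found in nearly every basement membrane, stand head to head and share their promoter region. COL4A2 had 12247 covered bases in 29 intervals in NC, and in KMT2D-KD it had 15546 in 25 intervals, a log2 ratio of 0.34. COL4A1 had 2705 in 8 intervals and 2356 in 7, a log2 ratio of -0.20. Of these, 1478 bases in NC and 2088 in KMT2D-KD lay in the body of COL4A2, while the COL4A1 body had 1227 and 268. COL4A2 and COL4A1 both lay below the ratio of their neighbourhood, 0.47 and 0.49. The percentile of COL4A2 went from 92.2 to 88.2 and that of COL4A1 from 68.3 to 50.2.

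COL4A3, COL4A4 and COL4A5 encode the chains of the kidney filter, and COL4A6 joins COL4A5 in other basement membranes. COL4A3 went from 1225 to 1550 covered bases, a log2 ratio of 0.34, and COL4A6 from 2222 to 2018, a log2 ratio of -0.14. COL4A4 had 0 in NC and 531 in KMT2D-KD, and COL4A5 had 0 and 246. The same 531 and 246 bases were also counted in the windows of COL4A3 and COL4A6. Within their own bodies, COL4A3 went from 1225 to 1019 covered bases and COL4A6 from 2222 to 1772. All 4 basement membrane genes with a value in both lists lay below the ratio within 1 Mb, which was 0.65 over the class. Of the 7 fibrillar genes with both values, 3 lay above their neighbourhood and 4 below, and of the 20 others 13 lay above and 7 below.

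**Figure D3:**
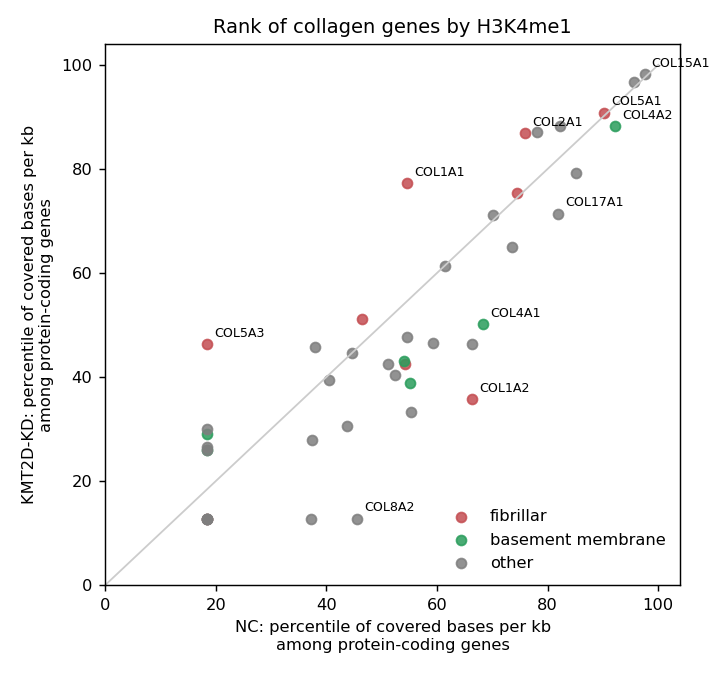
Percentile of covered H3K4me1 bases per kb among 20033 protein-coding genes in NC (horizontal axis) and KMT2D-KD (vertical axis), 1 point per collagen gene. Genes without an interval share a tied percentile, 18.4 in NC and 12.8 in KMT2D-KD, and points below the line lost rank. COL1A1 went from 54.6 to 77.3, while COL1A2 went from 66.3 to 35.8 and COL4A1 from 68.3 to 50.2.

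Among the other collagens, COL15A1 and COL16A1 had the most H3K4me1 for their length. COL15A1, a collagen of the basement membrane zone, had 14393 covered bases in 24 intervals in NC and 24823 in 35 intervals in KMT2D-KD, 85.9 and 148 per kb. COL16A1, a fibril-associated collagen, had 6164 in 9 intervals and 11077 in 22, 67.0 and 120 per kb. The percentile of COL15A1 was 97.5 in NC and 98.2 after the knockdown, and that of COL16A1 was 95.5 and 96.7. Their log2 ratios of 0.79 and 0.85 were near those of their neighbourhoods, 0.77 and 0.92.

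The fibril-associated collagens COL21A1 and COL14A1 are longer genes with fewer covered bases per kb. COL21A1 went from 11930 to 15565, a log2 ratio of 0.38, and COL14A1 from 5282 to 10358, a log2 ratio of 0.97. At −log10 q of at least 5, COL14A1 had 3498 covered bases in NC and 2950 in KMT2D-KD, so the direction turned. COL8A1, a short-chain collagen of vessels, went from 3546 to 4624, COL25A1, a transmembrane collagen of neurons, from 3129 to 3700, and COL26A1 from 2280 to 4692. The ratio was 1.04 on the log2 scale at COL26A1, 0.38 at COL8A1 and 0.24 at COL25A1.

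COL7A1, whose product forms the anchoring fibrils under skin epithelium, went from 1909 covered bases in 4 intervals to 4475 in 9, a log2 ratio of 1.23. COL9A3, a cartilage fibril-associated gene, went from 1424 in 4 to 3847 in 11, a log2 ratio of 1.43, with all 4 NC intervals found again. Bodies of other genes held 764 and 2066 of the COL9A3 bases, and 1082 and 248 of the COL7A1 bases. COL27A1, also called higher, went from 265 to 1867 covered bases, COL18A1, the source of endostatin, from 559 to 1332, COL24A1 from 401 to 1003 and COL6A3 from 321 to 853. Among called genes, the direction turned at COL24A1 with −log10 q of at least 5, and at COL6A3 with equal numbers of intervals or without flanks. COL17A1, the transmembrane collagen of hemidesmosomes, was singled out after its values were seen: its covered bases were 2491 in NC and 2798 in KMT2D-KD, but in 6 and 2 intervals. There the 2 KMT2D-KD intervals overlapped 4 of the NC intervals. The remaining members of the class were not called. COL23A1 had 2152 covered bases in NC and 3121 after the knockdown, COL6A6 1328 and 2098, COL12A1 1403 and 1610, COL13A1 710 and 660, and COL6A1 441 and 268. Bodies of other genes held 1233 and 823 of the COL23A1 bases, and 1054 and 1842 of the COL6A6 bases. COL19A1, COL6A5 and COL9A2 had none in NC and 341, 241 and 176 after the knockdown, and COL8A2 and COL22A1 had 279 and 240 in NC and none after it. COL6A2, COL9A1, COL10A1 and COL20A1 had no interval in either list.

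Along the window, collagen genes had most H3K4me1 before and just after the 5′ end. In NC there were 23.1 covered bases per kb in the 20 kb upstream, 20.6 in the first 20 kb of the gene, 8.67 in the rest of the gene and 11.6 in the 20 kb downstream. The KMT2D-KD values were 37.5, 31.7, 13.5 and 20.5. COL16A1 alone held 4736 of the 20312 upstream bases in NC and 6544 of the 32968 in KMT2D-KD. Over all protein-coding genes the highest part was the first 20 kb of the gene, with 19.6 and 33.0, and the upstream part had 15.1 and 26.4. The basement membrane genes had 10.7 and 10.9 covered bases per kb in the rest of the gene, a log2 ratio of 0.02 where all genes had 0.59, while in their first 20 kb the log2 ratio was 0.61. Because type IV genes stand head to head in pairs, the upstream part of each is the first part of its partner, and the bases there were the same. The fibrillar genes went from 9.35 to 25.4 downstream, a log2 ratio of 1.44.

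**Figure D4:**
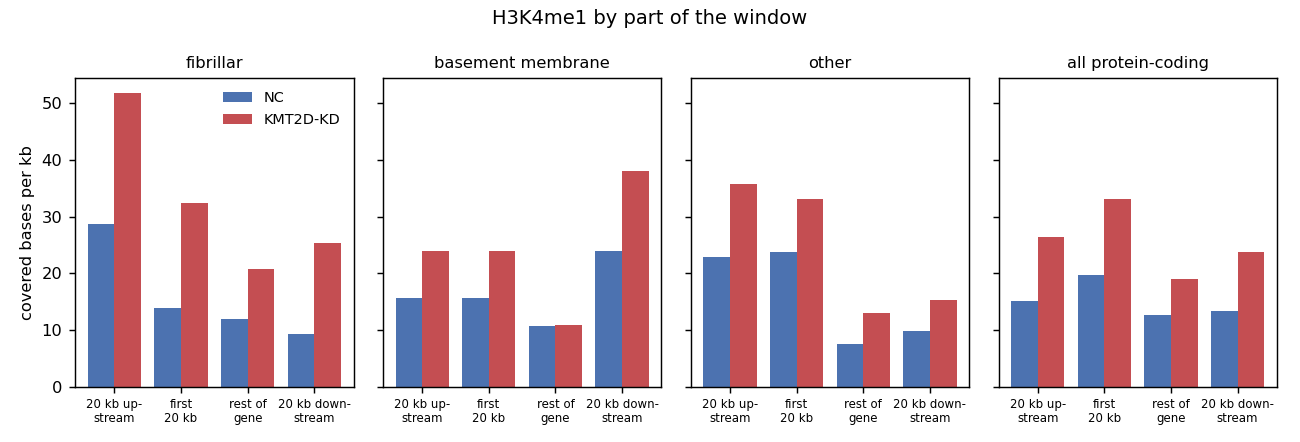
Covered H3K4me1 bases per kb (vertical axis) in 4 parts of the window for each collagen class and all protein-coding genes, in NC and KMT2D-KD. In the rest of the gene, beyond its first 20 kb, the basement membrane bars are nearly level (10.7 and 10.9), and in every other part of each class the KMT2D-KD bar is higher.

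Intervals within 1000 bases of the 5′ end were few, as they were over all genes. In NC, COL16A1 was the single collagen gene with one, where 6.43% of all protein-coding genes had one. In KMT2D-KD there were 5 such genes of 44 (COL16A1, COL5A2, COL6A1, COL7A1 and COL11A2), a share close to the 11.9% of all genes. When any transcript start was taken, 10 of 44 collagen genes had one in NC and 13 in KMT2D-KD. These were somewhat larger shares than the 17.4% and 26.6% of all genes, though few in number. The KMT2D-KD interval at COL5A2 lay 0.83 kb into the gene, with 9 fragments, and that at COL11A2 0.635 kb into the gene, with 11.

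Of the 208 NC intervals in collagen windows, 134 overlapped a KMT2D-KD interval by at least 1 base (64.4%, 95% interval 57.5 to 70.9), beside 70.2% over all protein-coding windows. Of the 311 KMT2D-KD intervals, 131 overlapped one of NC (42.1%, 36.6 to 47.8), beside 46.0%. The NC share was 73.2% (57.1 to 85.8) in fibrillar windows, and 21 of 42 (34.2 to 65.8%) in basement membrane windows. These counting intervals overlap, and the difference was not tested. Shared intervals had a median of 14 fragments in either list, and those of a single list had 10.5 in NC and 11 in KMT2D-KD. At the 125 collagen places held by both lists, the median log2 ratio of fold enrichment was 0.13, with 62.4% higher in KMT2D-KD, beside 0.17 and 66.0% at 39997 places in all. Covered bases per interval were 467 in NC and 496 in KMT2D-KD, so that the greater covered length went mostly with the number of intervals.

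The strongest intervals stood mostly at COL5A1. In KMT2D-KD the top 5 by −log10 q were in COL5A1 introns at chr9:134702281-134703124 (fold 9.90, −log10 q 20.4) and chr9:134775231-134776190 (8.98 and 20.3), upstream of COL16A1 at chr1:31707015-31708337 (9.35 and 18.9), upstream of COL5A1 at chr9:134625853-134626672 (8.63 and 17.7), and upstream of COL6A1 (8.21 and 17.4). The first 4 overlapped an NC interval and the last did not. In NC the top 5 were the interval 3′ of COL4A2 at chr13:110527793-110529455 (8.76 and 14.3), 3 at COL5A1, at chr9:134624985-134625511 (7.23 and 13.1), chr9:134667843-134669976 (6.17 and 11.5) and chr9:134776726-134777136 (6.16 and 9.70), and 1 upstream of COL16A1 at chr1:31707524-31708295 (7.02 and 9.61), which tied with an intronic interval of COL21A1 at chr6:56380053-56380978. All of these overlapped a KMT2D-KD interval.

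Most intervals of a single list were weaker than the shared ones, although 7 of 74 in NC and 21 of 180 in KMT2D-KD exceeded the median −log10 q of shared intervals. The strongest NC intervals without a KMT2D-KD counterpart lay in an intron of COL14A1 (−log10 q 8.02), 3′ of COL23A1 (6.33) and in an intron of COL28A1 (5.11). COL28A1 was also among the 8 genes with fewer covered bases, 2702 in NC and 2159 in KMT2D-KD. After COL6A1, the strongest in KMT2D-KD without an NC counterpart lay in introns of COL4A2 at chr13:110425654-110427534 (10.2) and COL5A1 at chr9:134734202-134734385 (8.70).

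**Figure D5:**
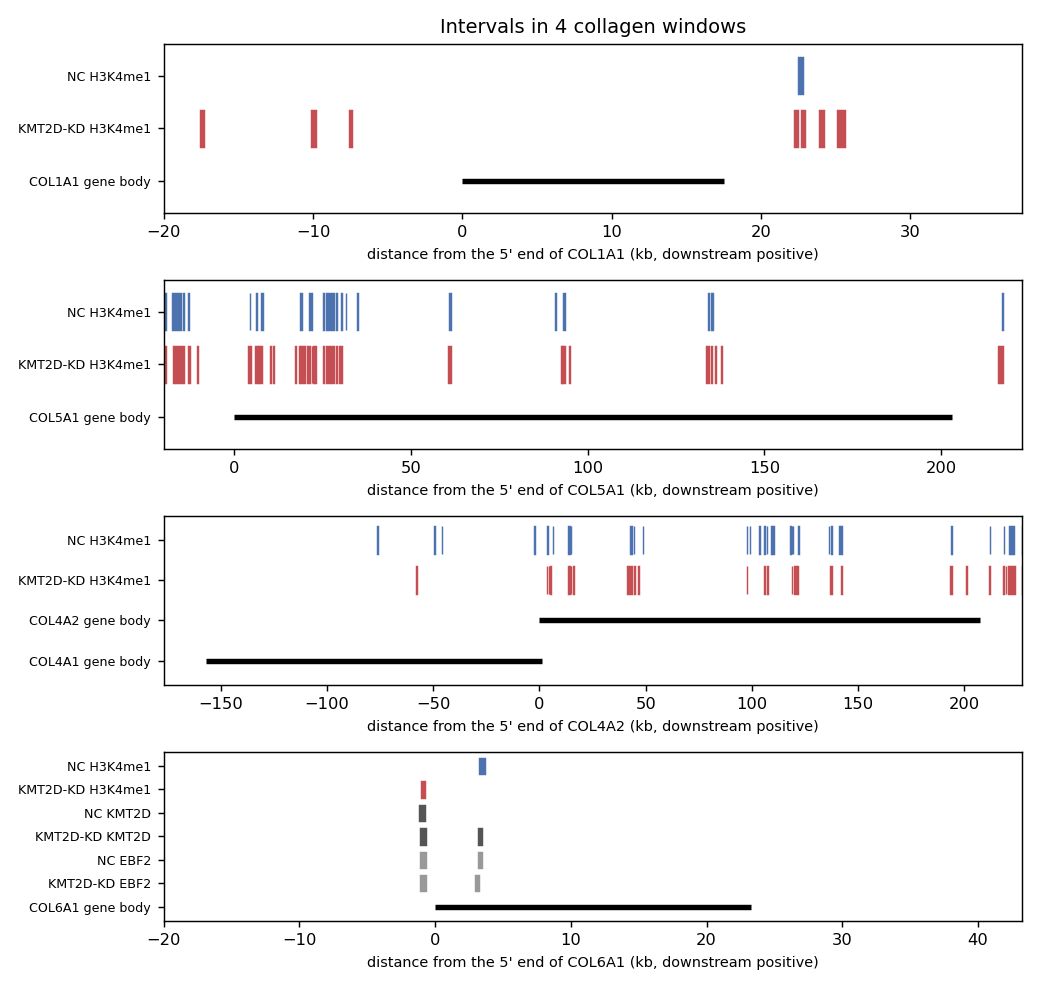
Called intervals in the windows of COL1A1, COL5A1, COL4A2 with COL4A1, and COL6A1, by distance in kb from the 5′ end of the first gene named on each axis (horizontal), 1 row per list, with gene bodies as black bars. H3K4me1 at COL1A1 lies on both sides of an empty gene body, at COL5A1 it recurs in clusters in both lists, and at COL6A1 the H3K4me1 intervals lie beside or within KMT2D and EBF2 intervals.

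Few KMT2D and EBF2 intervals were called anywhere, and a handful lay in collagen windows. There were 2 of 238 for KMT2D and 3 of 293 for EBF2 in NC, and 3 of 318 and 4 of 311 in KMT2D-KD, at COL6A1, COL6A2 and COL23A1. These were 1.85% and 2.5% in NC, and 2.05% and 2.74% after the knockdown, of the intervals of each list in protein-coding windows. Collagen windows made up 0.503% of the length of those windows. The shares rest on 2 to 4 intervals a list, and the same places upstream of COL6A1 and COL6A2 were called in all 4 lists. Whether they exceed the share of length was not tested. COL6A1 and COL6A2 encode chains of the beaded filaments of type VI collagen. At COL6A1, 0.881 kb before the 5′ end, all 4 lists had an interval, with a fold of 35.6 for KMT2D and 41.3 for EBF2 in NC and of 51.6 and 57.8 in KMT2D-KD. The strongest KMT2D interval of the collagen windows thus stood at the same place in both conditions.

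The KMT2D-KD H3K4me1 interval of COL6A1 (268 bases, 31 fragments) lay within that place, and NC had no H3K4me1 interval there. The NC H3K4me1 interval of COL6A1 (441 bases, 13 fragments) lay 3.39 kb into the gene and overlapped an interval of NC EBF2 and of KMT2D-KD KMT2D. Upstream of COL6A2 all 4 lists had an interval 7.11 kb before the 5′ end, with a fold of 15.4 in NC and 14.0 after the knockdown for KMT2D, and of 11.5 and 15.4 for EBF2, and neither H3K4me1 list had one. The remaining intervals, of EBF2 in KMT2D-KD, lay in introns. That of COL6A1, 3.09 kb into the gene, had a fold of 5.91, and that of COL23A1 had a fold of 4.64.

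The genes that process, degrade or bind collagen were called higher about as often as all genes. Of 41 such genes, 12 were called higher (29.3%), beside 29.2% of all genes. The 3 called lower were a larger share than the 1.85% of all genes, though few in number. Of the 41 genes, 32 had more and 7 fewer covered bases. Of the 29 enzymes and chaperones of collagen assembly, 8 were higher and 3 lower. SERPINH1, the collagen chaperone, went from 550 to 2092 covered bases and P4HA2, a prolyl hydroxylase subunit, from 7873 to 16910. The genes called lower were PLOD2, a lysyl hydroxylase (2371 to 1165), TLL2, a procollagen proteinase (2000 to 856), and COLGALT2, a collagen galactosyltransferase (515 to 0).

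Of 6 collagen-degrading enzymes, MMP9 was higher, from 1406 to 3438 covered bases, and none was lower. Of 6 receptors 3 were higher, namely the integrin chains ITGA10 (1181 to 2407) and ITGA11 (197 to 2228) and the receptor kinase DDR1 (1441 to 3127). ITGA11 had 1 interval in NC, and ITGA10 and DDR1 had 2 each. Counts out of 6 are small, and neither was tested against the 29.2% of all genes called higher.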

How the data were processed

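H3K4me1, KMT2D and EBF2 were each profiled in NC and KMT2D-KD SW1990 cells. Per the submitters' processing notes, BWA, MACS2 and HOMER were used with hg38, and per the deposited file names each ChIP library was called against the SW1990 input. Versions and thresholds are not given in the sources used here. The deposited narrowPeak lists hold each interval's score, fold enrichment over background, −log10 p-value and −log10 q-value, and there were no replicates to pool. Deposited intervals had q-values up to 0.0498, and the input library has no list of its own. Nothing was normalised between lists.

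Covered bases were the union of a list's intervals within a window. The 5′ end was that of the GENCODE gene record. Fragments at a summit were solved from the deposited fold and −log10 p-value to within 0.001 in −log10 p, which worked for 64839 of 64839 solvable H3K4me1 intervals in NC and for 92129 of 92130 after the knockdown. The lowest background was 1.85 fragments in NC and 1.64 in KMT2D-KD. Scripts used Python 3.11.15, pandas 2.3.3, scipy 1.17.1 and pysam 0.24.0, and counting was tested on simulated lists. Names followed a rule: all fibrillar and basement membrane genes, the 6 others with most covered bases in each list, all called genes, the 5 strongest intervals of each list and the 3 strongest of a single list. The members and lists were chosen with earlier results of these data known. Alternatives were a −log10 q of at least 5, equal numbers of intervals, other flanks, calls, overlaps and promoter widths, intervals outside other genes, and, chosen after seeing the data, leaving out the gene with most covered bases. Some sequences are not reported here.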

Additional observations from a re-analysis of the deposited data

How the results depend on the processing

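No paired analysis was possible because each target and condition had 1 library, and no library could be left out for the same reason. Of 73 alternatives to the main values, 46 stayed close and 27 moved. The sign turned in 1, the basement membrane ratio of covered bases, which was -0.05 without COL4A2. The log2 ratio of covered bases moved to 0.41 with equal numbers of intervals, and that of interval number to 0.10 there and to 0.86 at −log10 q of at least 5, where the basement membrane ratio of covered bases was 1.66. Genes called higher were 7 with equal numbers and 3 relative to all windows. The 1 gene called lower became 0 at −log10 q of at least 5, with 50 kb either side and with a minimum of 1000 bases. The NC share found in the other list was 71.7% at −log10 q of at least 5, 55.8% with equal numbers, 52.4% at an overlap of 50% and 77.4% within 1000 bases, and the KMT2D-KD share was 50.2%, 27.3% and 59.2% under the last 3. Genes with a promoter interval in NC were 0 at −log10 q of at least 5, 5 within 3000 bases and 10 at any transcript, and in KMT2D-KD 2, 9 and 13, and 2 with equal numbers. The motif share moved to 13.9% in NC and 14.5% in KMT2D-KD for the core TGACTC, and TGANTCA stood in 21.6% and 22.5% of whole intervals. Of 171 alternatives to single genes' values, 23 turned the direction, at 16 of 39 genes, including COL14A1 (45.8%), COL28A1 (65.2%) and COL23A1 (47.7%) at −log10 q of at least 5. Among genes past the 2-fold call, the KMT2D-KD share of covered bases turned at COL24A1 (34.9% at −log10 q of at least 5) and at COL6A3 (44.7% with equal numbers, 43.98% without flanks). An alternative that left a gene no interval in either list was not counted. At −log10 q of at least 5 this held for the called genes COL4A4, COL6A3, COL11A1, COL18A1 and COL27A1. The causes were not tested. The leaning of each class on few weak intervals, most near 12 fragments, and the lack of replicates limit all gene-level ratios.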
